A study of Mus musculus and Rattus norvegicus with 24 samples.

Results

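The tissue described here is the ischaemic penumbra of the rat brain 6 h after the middle cerebral artery was permanently blocked (pMCAO), set against the matching region of sham-operated rats. The comparison used 6 of the 24 arrays of the series, chosen by their titles as the rat arrays of the 6 h time point, and every transcript cluster of the rat array that carries 1 gene symbol, with the brightest cluster kept for each symbol. That gave 18166 genes. All animals were adult male Sprague-Dawley rats, a standard outbred strain, 8 to 12 weeks old and 270 to 300 g in weight. In 3 rats the left middle cerebral artery was blocked at its origin with a silicone-coated filament of 0.39 mm, passed up through the carotid artery and tied in place, so that blood flow was not restored. The other 3 rats had the same surgery and isoflurane anaesthesia without the occlusion. A piece of 3 mm by 3 mm was cut from the penumbra, or from the similar region on the operated side of the sham brains, and 1 animal was hybridised to 1 array. Rats killed at 2 h and C57BL/6 mice of 8 to 10 weeks killed at 6 h, in which the right artery was occluded, entered only the comparisons across time and species. A tag of the labels reads 2 h for these animals too, and the time was taken from the titles, source names and descriptions, which read 6 h.

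Focal ischaemia leaves a core that dies within minutes to hours and, around it, a penumbra in which flow is too low for normal activity but cells are still alive. Glutamate release and waves of depolarisation drive immediate early genes in neurons there. Protein damage and energy failure engage chaperones and the stress responses of the endoplasmic reticulum, and damaged cells call microglia and the vessel wall into an inflammatory response. Vessels of the brain are sealed by tight junctions and carry efflux pumps and transporters that together form the blood-brain barrier.

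The deposited values are log2 expression levels, on which a difference of 1 is a factor of 2. Array medians lay between 5.82 and 5.87 in the 6 rat arrays of 6 h and between 6.67 and 6.75 in those of 2 h. Effects were therefore always taken within a time point. Minima differed more, at 0.96 to 1.09 in the arrays of 6 h and 2.57 to 2.73 in those of 2 h. A contrast within a time removes a shift of level but not a difference in scale. Correlations between pairs of the 6 arrays were 0.9801 to 0.9879, and no pair held more than 2.031% identical values. The first principal component of the 6 arrays carried 45.9% of the variance and separated the groups, with pMCAO arrays at 10.45 to 23.53 and sham arrays at -18.7 to -14.46. The second component, with 19.4%, set pMCAO animal 3 (-19.59) apart from pMCAO animals 1 (11.98) and 2 (14.56). Among the genes that rose, pMCAO animal 2 had the lowest of the 3 pMCAO values in 343 of 517 and pMCAO animal 3 the highest in 297. No marker in the table defines penumbra as opposed to core, and the dissection could not be checked against one.

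Transcripts of immediate early genes, chemokines, Gadd45 stress genes and matrix genes rose most after occlusion. Transporters and the microglial receptor Gpr34 were among the largest falls. In all, 517 genes rose and 658 fell at an adjusted p under 0.05 (limma, Benjamini-Hochberg over 18166 genes), so the background was 2.85% of genes called higher, 3.62% called lower and 6.47% called in either direction. Rises were larger than falls: the median log2 difference was 0.58 among genes that rose and -0.42 among those that fell, and 105 rises against 18 falls reached a size of 1. The median over all genes was -0.017 and the median standard error 0.10. All 3 pMCAO values lay above all 3 sham values in 9.73% of genes and below them in 14.8%. With 3 animals in each group an exact permutation test of a single gene cannot go below p = 0.1. The calls therefore rest on the spread that limma shares across genes and across the 12 rat arrays. Standard errors come from that shared fit, so they also hold the spread of the 2 h rats. Fitted on the 6 arrays alone, 363 genes were called (211 higher, 152 lower), and 550 were called without sham animal 1 and 552 without sham animal 2. The tissue is a mixture of cells, so that fewer cells of a type and less RNA per cell cannot be told apart in any of these values.

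**Figure D1:**
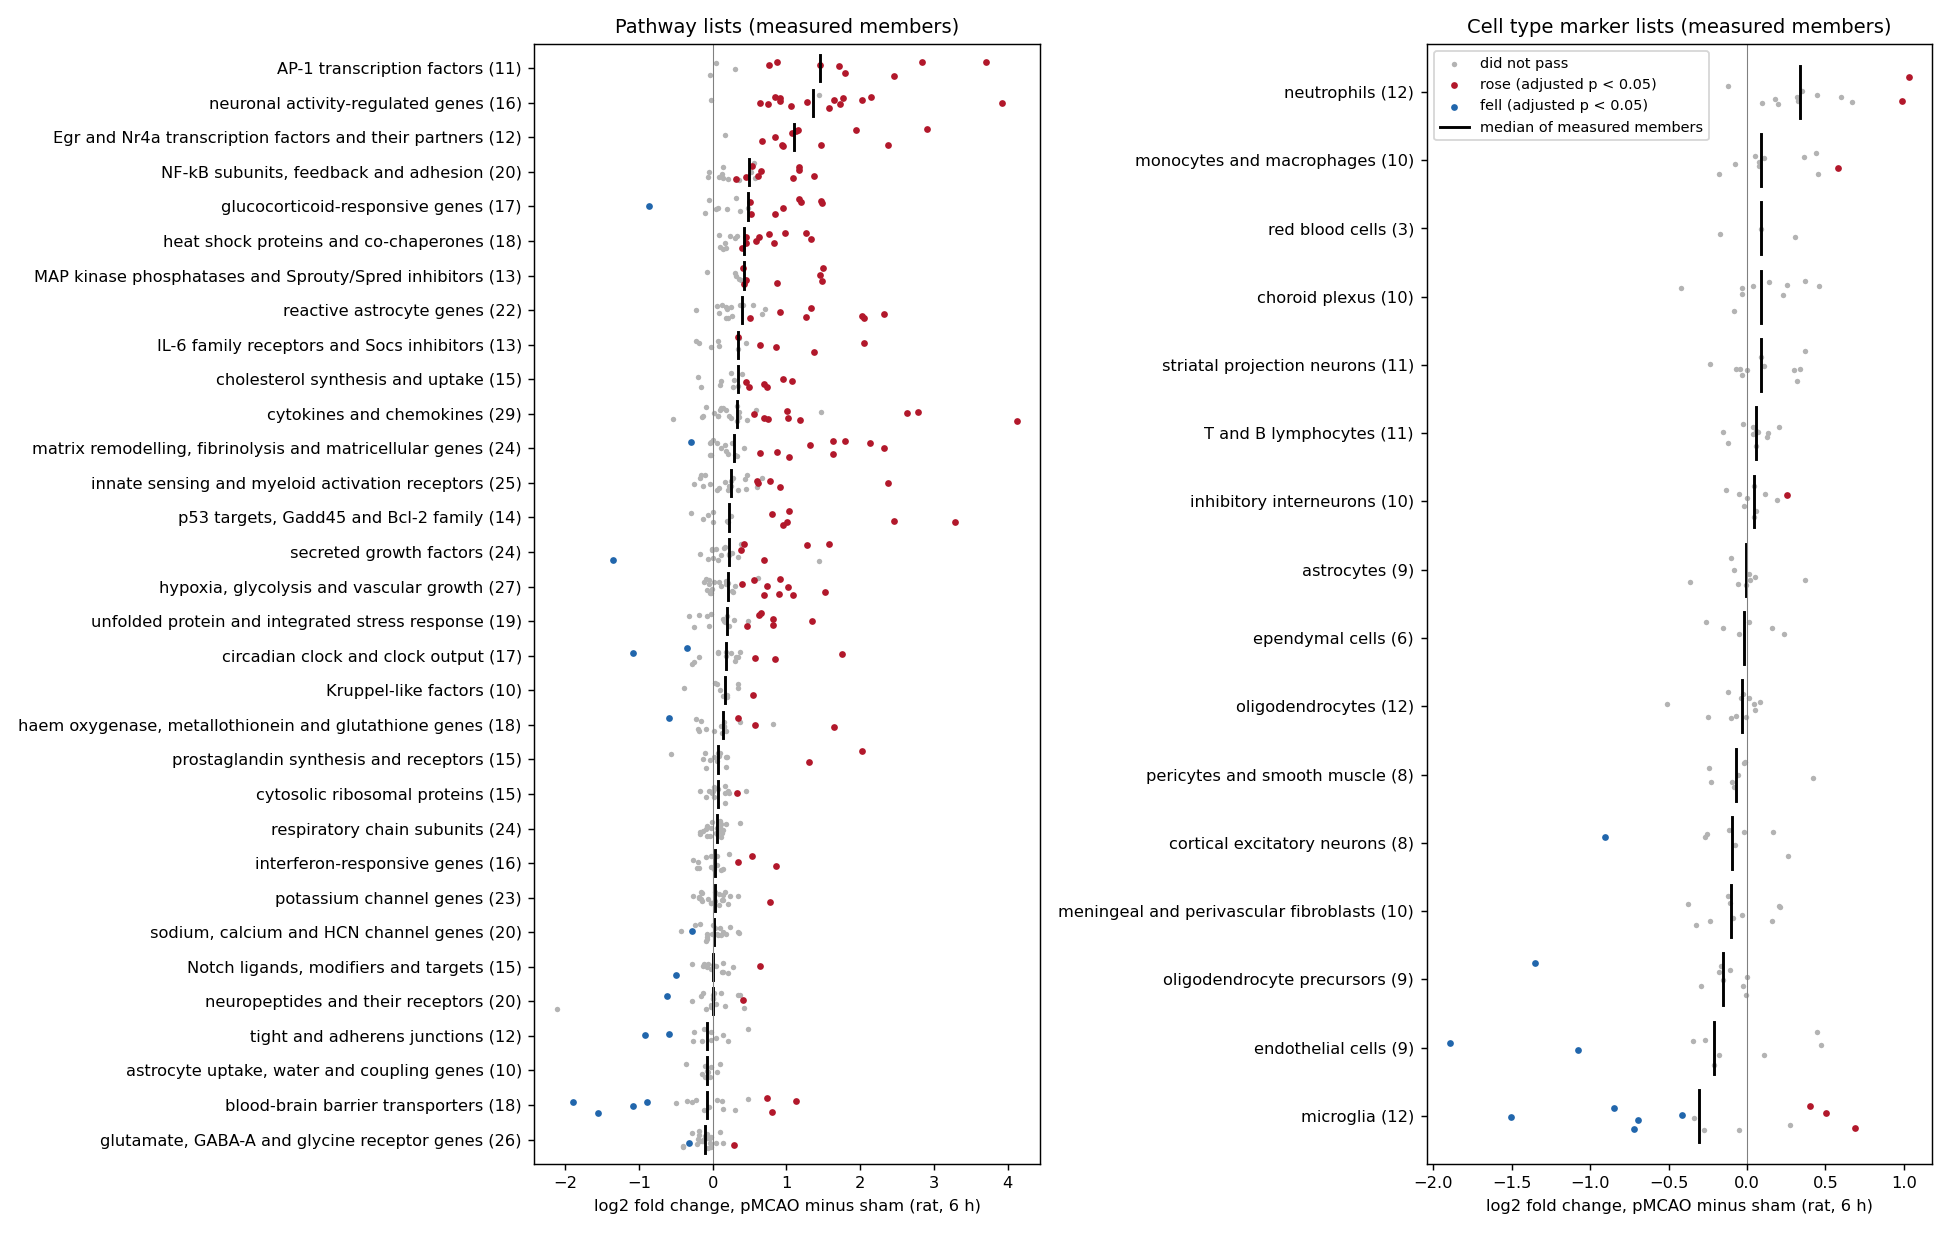
Log2 difference between pMCAO and sham (horizontal axis) for each measured member of 32 pathway lists (left) and 16 cell type marker lists (right) in rat tissue at 6 h. Each point is a gene, red where it rose and blue where it fell at an adjusted p under 0.05 and grey otherwise; black bars are list medians, from 1.46 for the AP-1 list down to -0.31 for the microglia list.

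The AP-1 transcription factors, dimers of Fos and Jun proteins that switch on within minutes of stimulation, showed the highest list median, 1.46, with 8 of 11 members up and none down. Fos read 11.17, 10.79 and 10.80 in the 3 pMCAO animals against 7.40, 7.31 and 6.93 in the shams, a log2 difference of 3.71 ± 0.34 (SE, n = 3 per group, adjusted p = 0.000153). The lowest occluded animal stood more than 3 log2 units above the highest sham. Fosb rose by 2.83 and Junb by 2.46 (8.84, 8.36 and 8.77 against 6.59, 6.03 and 5.98). Jun was the most even of these genes, at 9.62, 9.63 and 9.55 against 7.91, 7.95 and 7.79, with a difference of 1.72 ± 0.10 and the joint smallest adjusted p of the comparison, 6.82e-06. Atf3, a stress-induced member of the wider family, rose by 1.80, Jund by 0.88 and Mafk, a small Maf partner, by 0.76. Fosl1 rose by 1.46 with wide spread in the occluded animals, at 6.72, 6.45 and 8.19 against 5.49 to 5.90 in the shams. The Fosl1 call was lost (adjusted p 0.0791 to 0.0853) without sham animal 1 or 2. Batf and Batf3, which act mainly in lymphoid cells, did not pass (-0.03 and 0.04).

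Of the Egr and Nr4a factors and their partners, zinc finger and orphan nuclear receptor proteins that carry activity signals to later genes, 11 of 12 rose and none fell (median 1.10). Egr2 stood at 8.77, 8.37 and 9.46 after occlusion and at 6.44, 5.82 and 5.64 in shams (2.90 ± 0.43, adjusted p = 0.00266). Egr4 rose by 1.94, Egr1 by 1.46 and Egr3 by 0.85. Nr4a1 read 11.39, 10.79 and 11.08 against 9.07, 8.70 and 8.38, a difference of 2.37 ± 0.33. The 2 groups did not overlap for any of these genes. Nr4a3 rose by 1.13, Nr4a2 by 0.96, Ier2 by 1.16, Ier3 by 1.07, Ier5 by 0.93 and Srf, which binds the promoters of many immediate early genes, by 0.66. Nab2, a repressor that binds Egr proteins, did not pass (0.17, adjusted p = 0.224). The Nr4a2 call was lost (adjusted p 0.0548 to 0.0746) without pMCAO animal 3 or sham animals 1 or 3, and that of Nr4a3 (0.0517 to 0.0551) without pMCAO animal 1 or sham animals 2 or 3.

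Neuronal activity-regulated genes moved in the same direction, with 14 of 16 up, none down and a median of 1.36. Npas4, a neuron-specific transcription factor driven by calcium entry, read 12.39, 11.70 and 11.94 after occlusion and 8.42, 7.87 and 8.00 in shams. Its difference of 3.91 was the second largest of all genes, with a standard error of 0.69 and an adjusted p of 0.00708. The SD at 6 h was only 0.35 among pMCAO animals and 0.29 among shams. The standard error is wide beside these values, as the shared fit also holds the 2 h rats. Nptx2, a secreted pentraxin that clusters glutamate receptors, rose by 2.14 (9.68, 9.30 and 11.07 against 7.78, 7.84 and 8.00), and Ptgs2, the inducible cyclooxygenase, by 2.03 (10.77, 10.96 and 12.03 against 9.34, 9.38 and 8.95). Both were highest in pMCAO animal 3. Arc, which moves glutamate receptors off synapses, rose by 1.76, Sik1 by 1.73, Rgs2 by 1.57 and Vgf by 1.07. Bdnf, the neurotrophin, read 7.17, 6.55 and 8.37 against 6.20, 6.09 and 5.97 (1.28 ± 0.34, adjusted p = 0.0458), and its call was lost, at adjusted p 0.0645 to 0.12, when any single array other than pMCAO animal 2 was left out. Inhba, a subunit of activin, had values of 7.30, 7.12 and 9.99 against 6.65 to 6.72 and did not pass (adjusted p = 0.145). Somatostatin (Sst) differed by -0.02. The list count fell from 14 to 9 without sham animal 2.

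**Figure D2:**
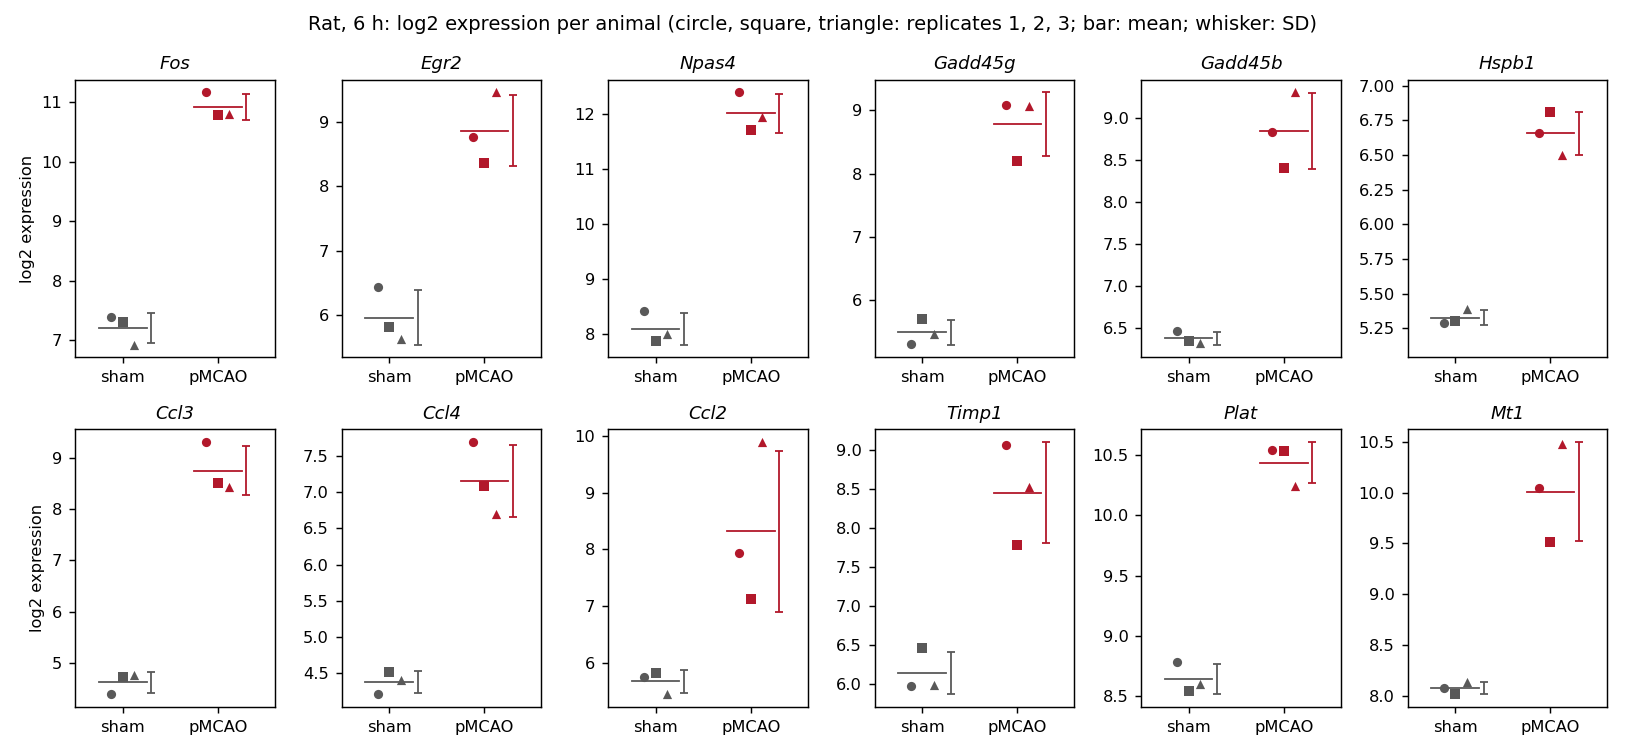
Log2 expression (vertical axes, scaled to each gene) of 12 genes that rose in rat tissue at 6 h, by animal. Grey points are sham and red points pMCAO animals, with circle, square and triangle for replicates 1, 2 and 3, a bar at the mean and a whisker of 1 SD; the groups do not overlap in any panel, and Ccl2 shows the widest spread, from 7.13 to 9.89 after occlusion.

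Brakes on the same signalling also rose. MAP kinase phosphatases and Sprouty inhibitors, which switch off growth factor and stress kinase signalling, had 7 of 13 members up and none down (median 0.43). Dusp6, a phosphatase specific for ERK, read 9.23, 8.89 and 9.27 against 7.88, 7.65 and 7.37 (1.50 ± 0.20, adjusted p = 0.00165). Dusp1 rose by 1.48, Dusp5 by 1.46 and Dusp16 by 0.45. Dusp4 rose by 0.88, and its call was lost (adjusted p 0.0735 to 0.161) without pMCAO animal 1 or any single sham. The list count was 4 without pMCAO animal 1, sham animal 1 or sham animal 3. Of the Kruppel-like factors, Klf10 alone of 10 passed (0.54 ± 0.11, adjusted p = 0.0135), with the list median at 0.17.

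The Gadd45 genes, which bind stress kinases and take part in DNA repair and demethylation, were among the strongest rises. Gadd45g read 9.08, 8.21 and 9.07 after occlusion and 5.32, 5.71 and 5.47 in shams (3.29 ± 0.39, adjusted p = 0.000713). Gadd45b read 8.83, 8.40 and 9.30 against 6.47, 6.35 and 6.33 (2.46 ± 0.18, adjusted p = 2.89e-05), and Gadd45a rose by 1.00. Each of the 3 genes was at least 0.59 log2 units higher in its lowest occluded animal than in its highest sham. On the same list of p53 targets and Bcl-2 relatives, Phlda1 rose by 1.04, the cell cycle inhibitor Cdkn1a by 0.95 and Pmaip1, a BH3-only death gene also called Noxa, by 0.80. In all 6 of 14 members rose and none fell. Mdm2 (0.25), Bcl2 (-0.14), Bcl2l1 (0.01), Bak1 (0.00) and the neuronal death gene Hrk (-0.29) did not pass, so the list median was only 0.23.

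Heat shock proteins and co-chaperones, which hold and refold damaged proteins, had 10 of 18 members up and none down, with a median of 0.43. The small heat shock protein Hspb1 read 6.66, 6.81 and 6.50 against 5.29, 5.30 and 5.39 (1.33 ± 0.21, adjusted p = 0.00396). The J-domain co-chaperone Dnajb1 read 8.84, 8.19 and 9.21 against 7.51, 7.51 and 7.44 (1.26 ± 0.20). Hsph1, a large HSP110 chaperone, read 10.81, 10.40 and 11.04 against 9.86, 9.77 and 9.70 (0.97 ± 0.13, adjusted p = 0.00172). For these genes no occluded animal overlapped a sham. Dnajb4 rose by 0.83, the Hsp70 partner Bag3 by 0.76, Dnajb5 by 0.58, the mitochondrial co-chaperonin Hspe1 by 0.46, Dnaja1 by 0.45 and Hspb8 by 0.40. The constitutive chaperones Hspa8 (0.13) and Hsp90ab1 (0.10) did not pass. The call for Bag3 was lost without sham animal 2 (adjusted p = 0.0509), that of Dnajb5 (0.0635 to 0.0759) without pMCAO animal 3 or any single sham, and that of Hspb8 (0.0664 to 0.114) without pMCAO animals 2 or 3 or sham animals 1 or 2. The transcript cluster that the annotation ties to both Hspa1a and Hspa1b, the main inducible Hsp70 genes, carries 2 symbols and was therefore not used.

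Heat shock factor binds repeats of GAA in alternating orientation, and the promoters of the listed genes were searched for these letters. Rat promoters were not used here, so the windows are those of the mouse genes of the same symbol (RefSeq, GRCm38.p6), from 250 bases before to 50 after the start. The motif GAANNTTC lay on either strand of the window in 6 of the 10 chaperone genes that rose (Bag3, Dnaja1, Hspb1, Hspb8, Hspe1 and Hsph1), and in 3 of the 5 listed chaperone genes with a window that did not rise, where 9.04% of the 27025 mouse genes with a window hold it. The reversed form TTCNNGAA lay in 3 of the 10 (Dnajb4, Hspe1 and Hsph1) and in 2 of the 5, against 9.6% of all genes. These are counts of letters in mouse sequence and not binding sites measured in these rats. The window of mouse Hsph1 is shown because it holds both forms, 3 matches in all, of which a pair overlap near the end. It lies on the minus strand at chr5:149636287-149636586, and capitals mark the matches.
Hsph1: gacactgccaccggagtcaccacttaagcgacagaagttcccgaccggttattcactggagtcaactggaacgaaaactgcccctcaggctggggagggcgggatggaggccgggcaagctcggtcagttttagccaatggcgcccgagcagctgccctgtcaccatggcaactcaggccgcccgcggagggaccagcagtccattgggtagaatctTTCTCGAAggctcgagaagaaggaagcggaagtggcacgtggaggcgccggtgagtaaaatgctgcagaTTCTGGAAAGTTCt

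Genes of the unfolded protein and integrated stress responses, which slow translation and expand the folding capacity of the endoplasmic reticulum, rose in part: 6 of 19 rose, none fell and the median was 0.19. Ppp1r15a (GADD34), which restarts translation by reversing eIF2alpha phosphorylation, read 7.94, 7.47 and 7.57 against 6.22, 6.40 and 6.33 (1.34 ± 0.13, adjusted p = 0.000188). The transcription factor Ddit3 (CHOP) rose by 0.82, Chac1, a glutathione-degrading enzyme, by 0.82, Atf4 by 0.66, the chaperone Hspa5 (BiP) by 0.63 and Herpud1 by 0.47. The occluded animals lay above all shams in each of these 6 genes. Other targets did not pass, among them Xbp1 (0.15), Dnajb9 (-0.07), Pdia4 (-0.02), Asns (-0.18) and Trib3 (0.29). The Chac1 call was lost without sham animal 1 or 2 (adjusted p 0.0512 to 0.0757) and that of Herpud1 (0.0526 to 0.0531) without pMCAO animal 1 or sham animal 3.

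Cytokines and chemokines held the largest rise of the comparison. Ccl3, a chemokine for monocytes and neutrophils made by microglia, read 9.31, 8.51 and 8.44 against 4.39, 4.72 and 4.77 (4.13 ± 0.37, adjusted p = 0.000133). Ccl4, its close relative, read 7.69, 7.08 and 6.70 against 4.21, 4.52 and 4.41 (2.78 ± 0.22, adjusted p = 6.31e-05). Ccl2, which draws monocytes, rose by 2.64 ± 0.49, from 5.76, 5.83 and 5.45 in shams to 7.93, 7.13 and 9.89 after occlusion. The highest value, in pMCAO animal 3, stood nearly 2 log2 units above the next. Il1a rose by 1.18, Cxcl1 by 1.02, Lif by 1.00, Il18 by 0.75, Tnf by 0.69 and Il1b by 0.56. In all 9 of 29 members rose and none fell, with a median of 0.33; without sham animal 1 the count was 5. Single arrays decided the smaller calls: Tnf (adjusted p 0.071 to 0.134) was lost without any array other than pMCAO animal 2, Lif (0.0532 to 0.0987) without pMCAO animal 1 or sham animals 1 or 2, Il1b (0.0799 to 0.0977) without pMCAO animal 3 or sham animals 1 or 2, and Il18 (0.0507) without sham animal 1. Il6 (0.36, adjusted p = 0.165), Cxcl2 (0.58, 0.0655), Ccl7 (1.46, 0.0794), Ccl5 (0.10) and Cxcl10 (0.15) did not pass. Ccl7 was high in pMCAO animal 3 alone, at 7.09 against 4.89 and 4.78 in the other occluded animals.

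Receptors and feedback inhibitors of the IL-6 family rose in 5 of 13 cases with none down (median 0.35). Osmr, the receptor subunit for oncostatin M, read 8.20, 7.23 and 8.18 against 5.81, 5.78 and 5.87 (2.05 ± 0.19, adjusted p = 0.000188). Socs3, the feedback inhibitor of this pathway, read 6.72, 6.03 and 7.40 against 5.27, 5.36 and 5.42 (1.37 ± 0.24). The signal transducer Stat3 rose by 0.86 and Il6r by 0.65. Socs2 rose by 0.35, a call lost at adjusted p 0.0647 to 0.12 without any single array other than pMCAO animal 2. Neither Il6st (0.09), the shared signalling subunit, nor Lifr (-0.18) passed.

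Within the NF-kB list, 9 of 20 members rose and none fell (median 0.49). NF-kB is held in the cytoplasm by IkB proteins and induces its own inhibitors when released. The subunit Rel read 8.07, 7.83 and 7.97 against 6.68, 6.43 and 6.65 (1.37 ± 0.13, adjusted p = 0.000188). The inhibitor Nfkbia read 9.21, 8.90 and 9.16 against 7.98, 7.76 and 8.02 (1.17 ± 0.17, adjusted p = 0.00216). Nfkbiz rose by 1.16, the antiapoptotic target Birc3 by 1.08, Nfkb1 by 0.65, Nfkb2 by 0.61 and Bcl3 by 0.54, again with no overlap between groups. Of the adhesion molecules by which leukocytes dock on vessels, Icam1 (0.58, adjusted p = 0.0634), Vcam1 (0.14), Sele (0.09) and Selp (0.15) did not pass.

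The NF-kB consensus was searched in the same mouse windows. It was found in 7 of the 14 genes that rose on the NF-kB and cytokine lists and had a window (Bcl3, Cxcl1, Irf1, Lif, Nfkb2, Nfkbia and Rel) and in 8 of the 22 that did not rise, against 9.55% of all genes. Among the 23 genes with a window that rose on the AP-1, Egr, Nr4a and activity lists, the NF-kB consensus was found in 8 (Bdnf, Egr2, Egr4, Fos, Fosb, Ier3, Npas4 and Nr4a1), the cAMP element TGACGTCA was found in 1 (Plk2; 2.03% of all genes) and the CArG box, the site of Srf, in 2 (Egr2 and Srf; 1.81%). Of the 6 members of these lists with a window that did not rise, 1 held the NF-kB consensus, 2 the cAMP element and 0 the CArG box. Nfkbia is shown because its product is the inhibitor that the factor itself induces. The calls for Irf1 (adjusted p 0.0746 to 0.131) and Plk2 (0.0592 to 0.0692) were lost without pMCAO animals 1 or 3 or sham animals 1 or 2, and that of Lif as given above. The window lies on the minus strand of mouse GRCm38.p6 at chr12:55492598-55492897, and capitals mark its match to the consensus.
Nfkbia: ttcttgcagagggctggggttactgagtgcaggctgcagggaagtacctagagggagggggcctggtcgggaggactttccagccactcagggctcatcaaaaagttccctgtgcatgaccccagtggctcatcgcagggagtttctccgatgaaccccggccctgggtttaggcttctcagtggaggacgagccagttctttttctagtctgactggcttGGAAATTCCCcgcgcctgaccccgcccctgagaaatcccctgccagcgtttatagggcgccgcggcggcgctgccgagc

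Of the innate sensing and myeloid activation receptors, 5 of 25 rose and none fell (median 0.25). Olr1, a scavenger receptor for oxidised lipoprotein, read 8.02, 6.59 and 7.03 against 4.96, 4.79 and 4.75 (2.38 ± 0.26, adjusted p = 0.000479). Cd14, the co-receptor for bacterial lipid, rose by 0.91, the pattern receptor Ptx3 by 0.78, Tnfrsf12a, the receptor for TWEAK, by 0.62 and Clec4d by 0.60. Toll-like receptors were near the sham level, with Tlr2 at 0.06, Tlr4 at -0.16 and Tlr7 at -0.10. The count was 3 without sham animal 1 or 2 and 8 without pMCAO animal 2. The Cd14 call was lost (adjusted p 0.054 to 0.0727) without pMCAO animal 1 or any single sham, and that of Ptx3 (0.0658 to 0.103) without pMCAO animal 3 or sham animals 1 or 2. Of 16 interferon-responsive genes 3 rose (Ifitm3 by 0.86, Gbp2 by 0.53 and Irf8 by 0.35), and the median was 0.04. Without sham animal 2 that count was 1; the Gbp2 call was lost there (adjusted p = 0.0515), and the Irf8 call (0.0864 to 0.144) without any single array other than pMCAO animal 3.

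Matrix remodelling, fibrinolysis and matricellular genes included several of the most precise rises. Plat, tissue plasminogen activator, read 10.54, 10.53 and 10.24 against 8.78, 8.54 and 8.60 (1.80 ± 0.12, adjusted p = 1.86e-05). Timp1, an inhibitor of metalloproteinases, read 9.07, 7.78 and 8.53 against 5.98, 6.46 and 5.99 (2.32 ± 0.25). Adamts9, a secreted protease of matrix proteoglycans, read 8.19, 7.62 and 8.13 against 6.09, 5.57 and 5.87 (2.14 ± 0.18, adjusted p = 9.54e-05). The occluded animals were more than 1 log2 unit above every sham for these 3 genes. Adamts1 and the matricellular protein Ccn1 each rose by 1.63, osteopontin (Spp1) by 1.32, Lox, which cross-links collagen, by 0.87 and the basement membrane chain Col4a1 by 0.64. Ccn2, a relative of Ccn1, fell by 0.30 (6.75, 6.80 and 6.76 against 7.13, 7.13 and 6.95). With Mmp8 the list had 9 of 24 members up and 1 down (median 0.29). The Ccn2 call was lost (adjusted p 0.069 to 0.112), so that the number down was 0, without pMCAO animal 1 or 3 or sham animal 1 or 2. The Lox call was lost (0.0688 to 0.0967) without pMCAO animals 1 or 3 or sham animals 1 or 3, and that of Mmp8 (0.0515 to 0.125) without any single array other than pMCAO animal 3. Mmp9 read 6.71, 5.96 and 7.02 against 6.30, 6.36 and 6.05 and did not pass (0.33, adjusted p = 0.415), nor did Mmp3 (-0.03), Mmp2 (-0.02) or the urokinase gene Plau (0.27).

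Hypoxia-regulated genes rose in 9 of 27 cases, with none down and a median of 0.21. Stc1, a secreted glycoprotein, read 8.90, 8.17 and 8.82 against 7.14, 7.24 and 6.96 (1.52 ± 0.23, adjusted p = 0.00316). Angptl4 rose by 1.09, Pfkfb3, which makes the activator of glycolysis, by 1.02, the vasodilator peptide adrenomedullin (Adm) by 0.91, Ndrg1 by 0.90, the glucose transporter Slc2a1 by 0.73, Vegfa by 0.69, Angpt2 by 0.55 and Pfkfb4 by 0.40. Slc2a1 read 10.32, 9.83 and 10.18 against 9.57, 9.35 and 9.21. Many classical targets of hypoxia-inducible factor did not pass: Pgk1 (0.21), Ldha (0.18), Pdk1 (-0.05), Car9 (-0.03), Egln3 (-0.12) and Ankrd37 (-0.04) were all within 0.22 of the sham mean. Hif1a itself differed by 0.00. The Pfkfb3 call was lost (adjusted p 0.0532 to 0.0539) without any single sham, that of Angpt2 (0.0968 to 0.133) without pMCAO animals 1 or 3 or sham animals 2 or 3, and that of Pfkfb4 (0.0531 to 0.119) without any single array other than pMCAO animal 2.

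Among genes of oxidative defence, haem oxygenase 1 (Hmox1) was nearly the same in the 3 occluded animals, at 7.25, 7.23 and 7.22, against 5.88, 5.61 and 5.26 in shams (1.65 ± 0.17, adjusted p = 0.000328). Mt1, a metallothionein that binds zinc and copper, read 10.04, 9.51 and 10.48 against 8.08, 8.02 and 8.14 (1.93 ± 0.18, adjusted p = 0.000188). Mt2A differed by 0.37 and Mt3 by 0.01, and neither passed. The oxidative list, which does not hold Mt1, had 3 of 18 members up (Hmox1, Nfe2l2 by 0.57 and Txnrd1 by 0.35) and 1 down. Gclm, the modifier subunit of the enzyme that starts glutathione synthesis, fell by 0.60 (8.01, 8.16 and 8.14 against 8.64, 8.93 and 8.53, adjusted p = 0.00968), while the catalytic subunit Gclc differed by 0.18 and did not pass. Only Hmox1 remained among the rises whichever array other than pMCAO animal 2 was left out, since the Nfe2l2 call (adjusted p 0.051 to 0.0664) and the Txnrd1 call (0.0905 to 0.136) were lost.

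Steroid-responsive and clock genes moved in both directions. Of 17 glucocorticoid-responsive genes 8 rose and 1 fell (median 0.48). Those that rose were Dusp1, Errfi1 (1.47), Nedd9 (1.20), Nfkbia, Cdkn1a, Per1 (0.85), Map3k6 (0.51) and Zbtb16 (0.50). Fkbp5 (-0.10), Tsc22d3 (0.04) and Sgk1 (-0.05), widely used readouts of steroid receptors, did not pass. The Map3k6 call was lost (adjusted p 0.06 to 0.105) without pMCAO animal 1 or sham animals 1 or 3. Sult1a1 fell by 0.86; that call was lost (adjusted p 0.0511 to 0.0806) without pMCAO animal 1 or sham animals 2 or 3, so the count down was then 0. Among 17 clock genes, Nfil3 read 7.94, 7.08 and 7.94 against 5.84, 6.07 and 5.79 (1.75 ± 0.20), and Cry2 rose by 0.58. Dbp, the opposing output factor that binds the same DNA element as Nfil3, read 10.24, 10.30 and 9.51 against 11.19, 11.09 and 11.00 (-1.08 ± 0.18, adjusted p = 0.00554). Per3 fell by 0.35 and, like Per1, was called in some subsets only: the Per1 call was lost (0.0523 to 0.0567) without pMCAO animal 1 or sham animals 2 or 3 and that of Per3 (0.089 to 0.121) without pMCAO animals 1 or 3 or sham animals 1 or 2. The core genes Clock (0.07), Npas2 (0.08) and Nr1d1 (0.18) did not pass.

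Reactive astrocyte genes rose in 7 of 22 cases with none down (median 0.40). They were Timp1, Osmr, Ptgs2, Hspb1 and Cd14, already given, with Emp1, a membrane protein, at 6.91, 6.50 and 6.88 against 5.23, 5.40 and 5.88 (1.26 ± 0.17, adjusted p = 0.00165). The other member, the sphingolipid receptor S1pr3, rose by 0.51, a call lost (adjusted p 0.059 to 0.115) without any single array other than pMCAO animal 2. The Cd14 call was lost without pMCAO animal 1 or any single sham (adjusted p 0.054 to 0.0727). The astrocyte marker Gfap read 9.08, 9.08 and 9.79 against 9.01, 9.07 and 8.75 and did not pass (0.37, adjusted p = 0.346). Whether the transcripts that rose came from astrocytes was not tested. None of the 10 genes of astrocyte uptake, water and gap junction function passed in either direction. The glutamate transporter Slc1a2 read 11.97, 11.97 and 12.03 against 11.92, 11.97 and 11.92, and the water channel Aqp4 read 10.33, 10.27 and 10.40 against 10.43, 10.51 and 10.24. The median of that list was -0.07 and its values overlapped between groups for 9 of 10 genes. Most genes on the array overlapped too: 9.73% lay wholly above the shams and 14.8% wholly below. Sterol synthesis rose as well, with 6 of 15 members up and none down (median 0.34): the enzymes Idi1 (1.07), Mvd (0.74), Msmo1 (0.69), Cyp51 (0.50) and Sqle (0.45), and Insig1, which holds the sterol sensor in place, at 9.25, 9.32 and 9.46 against 8.34, 8.32 and 8.51 (0.95 ± 0.10, adjusted p = 0.000267). The exporters Abca1 (-0.19) and Abcg1 (-0.16) did not pass, and the Sqle call was lost (adjusted p 0.0525 to 0.0594) without pMCAO animal 3 or any single sham.

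Secreted growth factors rose in 5 of 24 cases and fell in 1 (median 0.22). Hbegf, a ligand of the epidermal growth factor receptor, read 7.45, 7.24 and 7.69 against 5.91, 5.64 and 6.11 (1.57 ± 0.15, adjusted p = 0.000199). Vegfa and Bdnf have been given, and Gdf15, a stress cytokine, rose by 0.43, a call lost (adjusted p 0.0694 to 0.151) without any single array other than pMCAO animal 3. The count up was 3 without pMCAO animal 1, sham animal 2 or sham animal 3 and 2 without sham animal 1. Prostaglandin synthesis genes rose in 2 of 15 cases, Ptgs2 and Ptges, the synthase that acts after it to make prostaglandin E2 (7.71, 7.01 and 7.68 against 6.32, 6.08 and 6.10, a difference of 1.30 ± 0.19).

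The largest fall of a protein-coding gene that passed was that of a transporter of the vessel wall. Slco1a4, which carries organic anions across brain endothelium, read 6.35, 6.61 and 5.90 after occlusion and 8.15, 8.37 and 8.03 in shams (-1.90 ± 0.17, adjusted p = 0.000124). Abcg2, an efflux pump also called breast cancer resistance protein, read 5.06, 5.56 and 5.15 against 6.62, 6.84 and 6.98 (-1.56 ± 0.23, adjusted p = 0.00268). Abcb1a, P-glycoprotein, read 7.16, 7.45 and 7.20 against 8.48, 8.44 and 8.12 (-1.08 ± 0.11, adjusted p = 0.000225). Slco1c1, the thyroxine carrier, read 8.46, 8.29 and 8.33 against 9.38, 9.31 and 9.06 (-0.89 ± 0.09). The highest occluded animal stayed at least 0.6 log2 units below the lowest sham for all 4 genes. Other barrier transporters did the reverse: Slc5a3, which takes up the osmolyte inositol, rose by 1.12, the lactate carrier Slc16a1 by 0.81 and Slc2a1 by 0.73. With 3 of 18 up and 4 down, the median was -0.08. Mfsd2a (-0.05), Slc7a5 (0.48), Tfrc (0.06) and Abcc4 (-0.22) did not pass. The Slc5a3 call was lost without sham animal 1 or 3 (adjusted p 0.0575 to 0.0598), and the number up was 5 without pMCAO animal 2.

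Of 12 junction genes, occludin (Ocln) fell by 0.92 (5.78, 5.71 and 5.31 against 6.67, 6.53 and 6.35, adjusted p = 0.00478) and Cldn12 by 0.59, and none rose. Cldn5, the main claudin of brain vessels, read 7.38, 7.20 and 7.07 against 7.66, 7.49 and 7.31, groups that overlap (-0.27, adjusted p = 0.218). Tjp1 (-0.12) and Cdh5 (0.47) did not pass. Endothelial markers as a whole had 2 of 9 members down, the transporters Slco1a4 and Abcb1a, and none up. The mean level of the list was 6.69 to 6.99 in occluded animals and 6.95 to 7.25 in shams, and Flt1 (0.11), Tek (-0.34), Tie1 (-0.18) and Vwf (-0.21) did not pass. Whether a change in the number of endothelial cells takes part in the transporter falls was not tested. None of 8 pericyte and smooth muscle markers passed. Of 15 Notch genes 1 rose, Dll4, a ligand of sprouting vessels, by 0.64, and 1 fell, the target Hes5, by 0.50. The median of the Notch list was 0.01, and of all genes 2.85% were called higher and 3.62% lower.

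**Figure D3:**
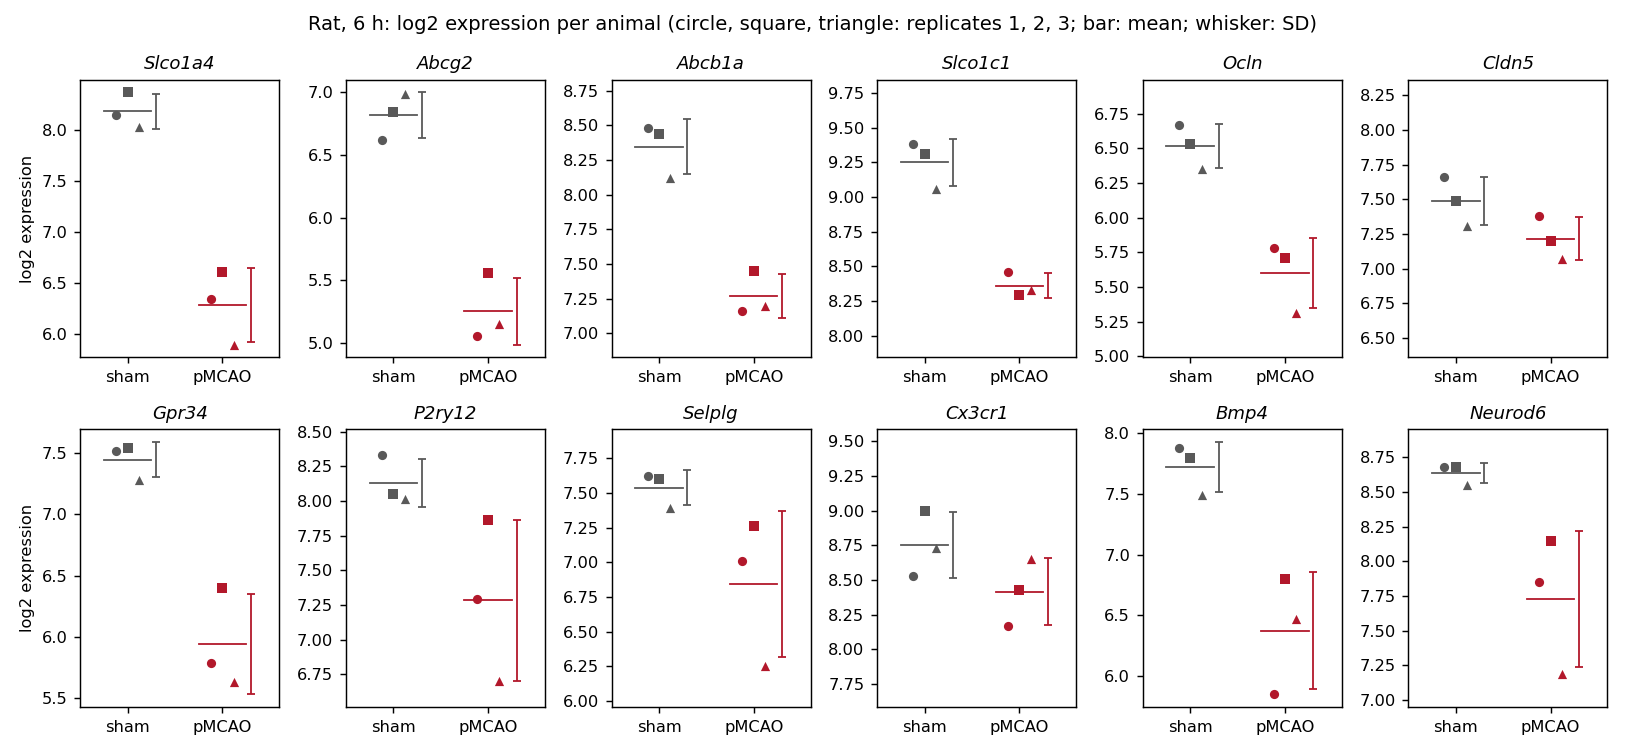
Log2 expression (vertical axes, scaled to each gene) by animal for 12 genes of the vessel wall, microglia, precursor cells and neurons in rat tissue at 6 h, drawn as for the genes that rose. Groups do not overlap for Slco1a4, Abcg2, Abcb1a, Slco1c1, Ocln, Gpr34, P2ry12, Selplg, Bmp4 and Neurod6; they overlap for Cldn5 and Cx3cr1, which did not pass the test.

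Microglial markers split. Receptors that mark resting microglia fell: Gpr34, a lysophospholipid receptor, read 5.79, 6.40 and 5.63 against 7.51, 7.54 and 7.28 (-1.50 ± 0.18, adjusted p = 0.000925). P2ry12, the purine receptor that steers microglial processes, read 7.29, 7.86 and 6.70 against 8.33, 8.05 and 8.01 (-0.85 ± 0.23, adjusted p = 0.0484). P2ry13 fell by 0.72, Selplg by 0.70 and Tmem119 by 0.42. The complement genes C1qc and C1qb rose by 0.51 and 0.40, and Itgam (CD11b) by 0.69 (6.66, 5.87 and 6.55 against 5.73, 5.71 and 5.58). Thus 3 of 12 rose and 5 fell, against a background of 2.85% and 3.62%, and the list median was -0.31. Cx3cr1 (-0.34), Csf1r (-0.27), Aif1 (-0.05) and C1qa (0.27) did not pass. List means were 6.91 to 7.12 in occluded animals and 7.20 to 7.28 in shams, and whether a change in the number of microglia takes part was not tested. Several of these calls rested on single arrays. The P2ry12 call was lost (adjusted p 0.076 to 0.157) without any array other than pMCAO animal 2, that of Selplg (0.0652 to 0.141) without pMCAO animal 1 or any sham, that of Itgam (0.0846 to 0.112) without any array other than pMCAO animal 2 and that of C1qb (0.0517 to 0.0835) without pMCAO animal 1 or sham animals 1 or 3. The number down was 3 without pMCAO animal 1 or any single sham, and the number up was 1 without pMCAO animal 1 or sham animals 1 or 3.

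Some markers of blood leukocytes rose, where 2.85% of all genes were called higher. Of 12 neutrophil markers 2 rose, Mmp8, the collagenase of neutrophil granules (6.03, 6.72 and 5.72 against 4.79, 5.41 and 5.16, a difference of 1.04), and S100a9, a calcium-binding alarmin (6.28, 6.66 and 5.88 against 5.40, 5.22 and 5.24, a difference of 0.99). Both were highest in pMCAO animal 2, the animal with the smallest rises elsewhere. Mpo (0.20), Elane (-0.12), Cxcr2 (0.45) and S100a8 (0.60) did not pass, and list means were 5.42 to 5.50 against 4.97 to 5.12. The S100a9 call was lost without sham animal 2 (adjusted p = 0.0544), and the Mmp8 call (0.0515 to 0.125) without any single array other than pMCAO animal 3, so neither stood without sham animal 2. Ccr2 rose by 0.58 among 10 monocyte and macrophage markers, a call lost without sham animal 1 (adjusted p = 0.056). None of 11 lymphocyte and 3 red cell markers passed.

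Each neuronal marker list had at most 1 member called, where 2.85% of all genes were called higher and 3.62% lower. Of 8 cortical excitatory markers, the transcription factor Neurod6 fell by 0.91 (7.85, 8.15 and 7.19 against 8.68, 8.68 and 8.55, adjusted p = 0.0275). Neurod1, of the same family but on no marker list, fell by 1.12 (6.67, 6.84 and 5.99 against 7.66, 7.93 and 7.26). Both were lowest in pMCAO animal 3. The Neurod6 call was lost (adjusted p 0.0521 to 0.0888) without any single array other than pMCAO animal 2, and that of Neurod1 (0.0512 to 0.0612) without sham animal 1 or 2. The vesicular glutamate transporter Slc17a7 (-0.12), Tbr1 (0.26) and Nrgn (-0.02) did not pass. None of 11 striatal markers passed, with Drd1 at -0.03, Drd2 at 0.09 and Penk at 0.37. Of 10 interneuron markers Slc32a1 rose by 0.26, a call lost (adjusted p 0.0856 to 0.142) without any single array other than pMCAO animal 3. None of 12 oligodendrocyte markers and none of 9 astrocyte markers passed. On the list of precursor cells Bmp4, a growth factor that holds back their maturation, fell by 1.35 (5.85, 6.80 and 6.47 against 7.88, 7.80 and 7.49, adjusted p = 0.00718), while Pdgfra (-0.11) and Cspg4 (-0.02), which define these cells, did not pass. None of 10 choroid plexus, 6 ependymal or 10 fibroblast markers passed.

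No list of channel, receptor or peptide genes had more than 1 member called higher or 1 called lower. Of all genes, 2.85% were called higher and 3.62% lower. Of 23 potassium channel genes Kcnf1, a silent subunit, rose by 0.77 (8.53, 8.15 and 8.55 against 7.90, 7.45 and 7.56). Of 20 sodium, calcium and HCN channel genes Scn2a fell by 0.28. Of 26 receptor genes Grin2b, an NMDA receptor subunit, fell by 0.33 and Gabrd, a GABA-A subunit, rose by 0.29. Neuropeptide Y (Npy) rose by 0.41 and its receptor Npy5r fell by 0.62 (5.08, 5.18 and 5.23 against 5.91, 5.76 and 5.69) among 20 peptide genes. Neurotensin (Nts), a peptide transmitter, read 4.69, 4.76 and 4.66 against 6.91, 6.82 and 6.69, with no overlap. It did not pass (-2.10 ± 0.66, adjusted p = 0.0817), with a standard error that also holds the spread of the 2 h rats. Without single arrays the calls for Scn2a (adjusted p 0.0504 to 0.0879) and Gabrd (0.0777 to 0.118) were lost for any array other than pMCAO animal 1, and those for Grin2b (0.0569 to 0.11) and Npy (0.0637 to 0.123) for pMCAO animals 2 and 3 and sham animals 1 and 2. None of 24 respiratory chain genes passed (median 0.06), and of 15 ribosomal protein genes Rps14 rose by 0.32, a call lost (0.0598 to 0.106) without any single array other than pMCAO animal 3.

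Further large falls came from genes of mixed function. Tmem74, a lysosomal membrane protein tied to autophagy, read 5.65, 5.47 and 5.55 against 6.95, 6.80 and 6.78 (-1.29 ± 0.13, adjusted p = 0.000240). Prom1, a membrane glycoprotein of progenitor cells, fell by 1.20 (6.26, 6.29 and 5.34 against 7.44, 7.16 and 6.88), B3galt2, a glycosyltransferase, by 0.96, the thiamine transporter Slc19a3 by 0.93, Ranbp3l by 0.93 and Pibf1, a centrosomal protein, by 0.85. C1h9orf85 fell by 1.69 at low levels (2.93, 2.62 and 2.83 against 4.30, 4.80 and 4.35), and that call was lost (adjusted p 0.0622 to 0.115) whichever array was left out. Zfp455 (-1.06), Lrif1 (-0.86) and Ranbp3l were also lost in some subsets: Zfp455 (0.0565 to 0.0844) without any single sham, Lrif1 (0.059 to 0.0654) without pMCAO animal 1 or sham animals 1 or 2, and Ranbp3l (0.0513 to 0.0961) without pMCAO animals 1 or 3 or sham animal 2. Among rises outside the lists, C3h11orf96 read 9.48, 8.95 and 9.39 against 7.09, 7.08 and 7.21 (2.15 ± 0.13, adjusted p = 6.82e-06), and Depp1, a gene induced by FoxO factors, rose by 1.96 (8.03, 7.70 and 7.41 against 5.85, 5.47 and 5.93).

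The array also holds microRNA genes, short regulators that pair through their seed with target transcripts, whose probes read the hairpin or its host transcript and not the mature microRNA. Of 363 such genes 20 fell (5.51%, against 3.62% of all genes) and 7 rose (1.93%, against 2.85%), and their median was -0.05. Mir132 and Mir212, a pair that neurons induce with activity, both rose: Mir132 read 5.12, 5.12 and 5.98 against 4.67, 4.31 and 4.87 (0.79 ± 0.21, adjusted p = 0.0417) and Mir212 read 6.90, 6.42 and 7.25 against 6.14, 6.17 and 6.05 (0.74 ± 0.19, adjusted p = 0.0364). Mir421 and Mir374b showed the largest falls but the widest spread: Mir421 read 3.60, 2.41 and 5.40 against 6.24, 6.22 and 5.77, and Mir374b read 3.18, 2.31 and 4.65 against 5.70, 5.72 and 5.17. Of the occluded animals, number 3 was closest to the shams for both genes, and Mir384 (-1.47) had the same order, at 4.68, 4.49 and 6.12 against 6.51 to 6.63. None of these 5 calls stood whichever array was left out: Mir132 (adjusted p 0.0733 to 0.152) was lost without pMCAO animal 3 or sham animals 1 or 2, Mir212 (0.089 to 0.109) without any array other than pMCAO animal 2, Mir421 (0.0517 to 0.0923) without pMCAO animal 1 or any sham, Mir374b (0.0535 to 0.0553) without sham animals 1 or 2 and Mir384 (0.055 to 0.0756) without any array other than pMCAO animal 3. The calls for Mirlet7c1 (-1.29), Mir873 (-1.09), Mir30c2 (-0.86), Mir138-2 (-0.68), Mir218-1 (-0.59) and Mir135b (0.52) stood whichever array was left out. In mice at 6 h Mir421 (-1.25), Mir374b (-1.03) and Mir384 (-1.04) also fell (limma, adjusted p 0.00877 to 0.0288), while Mir132 and Mir212 did not pass. Of the 27 called microRNA genes 20 matched a mouse symbol in RefSeq (GRCm38.p6). For Mir132, Mir212, Mir374b, Mir421 and Mir384, 1 mouse mature arm each is shown, with the seed, bases 2 to 8 from the 5′ end, in capitals. Mouse Mir132 and Mir212 lie 203 bases apart on chromosome 11 and share the seed AACAGUC in their 3p arms. The position and seed in the rat were not examined. Mouse Mir374b and Mir421 lie 63 bases apart on chromosome X and have different seeds in the 5p arms shown.
miR-132-3p: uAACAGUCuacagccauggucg
miR-212-3p: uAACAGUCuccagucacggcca
miR-374b-5p: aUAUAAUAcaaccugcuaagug
miR-421-5p: cUCAUUAAauguuuguugaau
miR-384-5p: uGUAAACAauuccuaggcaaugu

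The effect of occlusion at 6 h was then set against that at 2 h in other rats, with shams of each time. Time and the scale of the arrays differ together here and cannot be told apart. At 2 h 12 genes were called (0.0661%), of which 6 were also called at 6 h, 4 in the same direction. The difference between the effects passed for 42 genes (0.231%), 30 with a more positive and 12 with a more negative effect at 6 h, and 1966 had an unadjusted p under 0.05. Of the 42, 38 were called at 6 h. Among the named genes Gadd45b differed most: its effect was 0.37 at 2 h and 2.46 at 6 h (difference 2.09 ± 0.25, adjusted p = 0.00982). Mt1 went from -0.05 to 1.93, Ccl4 from 0.79 to 2.78, Osmr from 0.22 to 2.05, C3h11orf96 from 0.55 to 2.15 and Jun from 0.79 to 1.72. The transporters Slco1a4 (0.02 to -1.90), Abcb1a (-0.07 to -1.08) and Slco1c1 (0.04 to -0.89) and Tmem74 (0.07 to -1.29) had effects near 0 at 2 h. The transporter Abcg2 did not: its effect was -1.04 at 2 h (adjusted p = 0.196) and -1.56 at 6 h. Neither that 2 h effect nor the difference (-0.52, adjusted p = 0.616) passed. Fos had already risen at 2 h (2.44, adjusted p = 0.0182). The 2 h effects of Npas4 (3.71, adjusted p = 0.102) and Hspb1 (1.25, 0.0655) did not pass, nor did the differences between times of these 3 genes (1.27, 0.20 and 0.08). Tnfrsf11b, a decoy receptor of the TNF family, ran the other way, from 1.04 at 2 h to -0.25. The count of 42 rested on single arrays: it was 11 without pMCAO animal 3 of 2 h, sham animal 1 of 2 h or sham animal 2 of 6 h, 12 without sham animal 3 of 6 h, 18 to 23 without pMCAO animal 1 or sham animals 2 or 3 of 2 h or pMCAO animal 1 or sham animal 1 of 6 h, and 140 without pMCAO animal 2 of 6 h. Calls of this difference for named genes were lost as follows. That of Osmr (adjusted p 0.0508 to 0.0721) was lost without any array other than pMCAO animal 2 of either time or pMCAO animal 3 of 6 h, and that of Ccl4 (0.0582 to 0.0895) without pMCAO animals 1 or 3 of 2 h or any sham of either time. That of Jun (0.0508 to 0.0679) was lost without pMCAO animal 3 or sham animals 1 or 2 of 2 h, or without pMCAO animal 1 or any sham of 6 h. That of Abcb1a (0.0508 to 0.0726) was lost without pMCAO animals 1 or 3 or sham animals 1 or 2 of 2 h, or without pMCAO animal 1 or sham animals 1 or 2 of 6 h. That of Slco1c1 (0.0515 to 0.0531) was lost without sham animal 1 of 2 h or sham animal 2 of 6 h, and that of Tmem74 (0.0515) without sham animal 1 of 2 h.

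**Figure D4:**
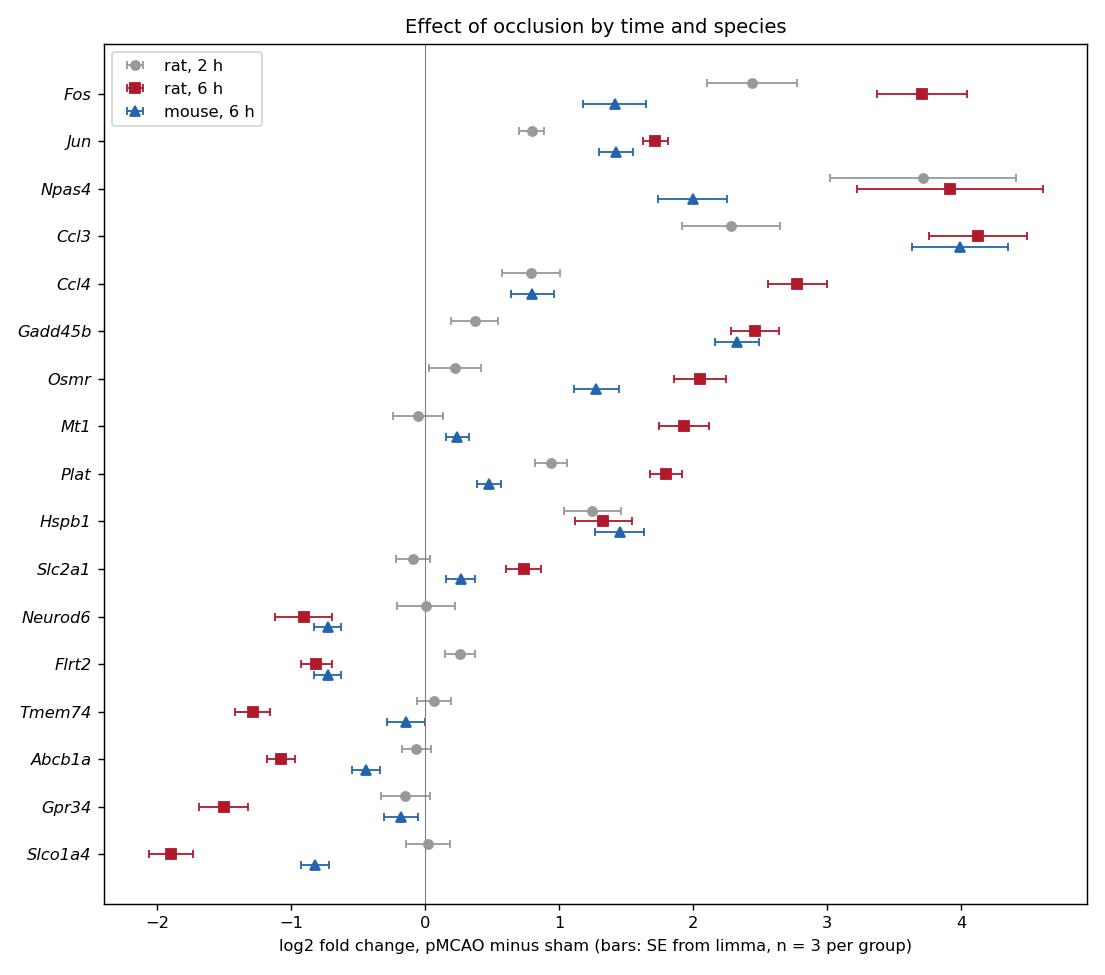
Log2 difference between pMCAO and sham (horizontal axis) in rats at 2 h (grey circles) and 6 h (red squares) and in mice at 6 h (blue triangles) for 17 genes, with standard errors from limma and 3 animals per group. Slco1a4, Abcb1a and Tmem74 sit near 0 in rats at 2 h and between -1.90 and -1.08 at 6 h, while Npas4 stands at 3.71 and 3.91 and Hspb1 at 1.25 and 1.33 in rats at the 2 times.

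Mice operated in the same series gave an independent set of animals and shams on another array. Over 14193 symbols measured in both species, 1038 were called in rats at 6 h and 1218 (8.58%) in mice at 6 h. The lists shared 315 genes, 30.3% of the rat calls and 25.9% of the mouse calls, and all 315 moved in the same direction. The difference between the effects passed for 323 genes (2.28%), 169 (1.19%) with a more positive and 154 (1.09%) with a more negative effect in rats. Ccl3 (4.13 in rats, 3.99 in mice), Gadd45b (2.46 and 2.33), Hspb1 (1.33 and 1.45), Ptgs2 (2.03 and 2.00) and Adm (0.91 and 1.16) passed in both species, with differences from -0.25 to 0.14 that did not pass. Olr1 differed most, at 2.38 in rats and -0.10 in mice (difference 2.48 ± 0.29, adjusted p = 0.000270). Fos was 3.71 against 1.41, Ccl4 2.78 against 0.80, Junb 2.46 against 0.61, Timp1 2.32 against 0.57, Mt1 1.93 against 0.24 and Plat 1.80 against 0.48 (adjusted p = 8.55e-05). Abcg2 was -1.56 in rats and 0.00 in mice, Gpr34 -1.50 and -0.18, Bmp4 -1.35 and 0.04 and Ocln -0.92 and -0.05. P2ry12 (-0.85 and -0.78) and Selplg (-0.70 and -0.85) fell in both species. Egr2 (2.90 against 0.61) and Nr4a1 (2.37 against 0.58) also differed. The Egr2 call was lost (adjusted p 0.0517 to 0.0718) without rat pMCAO animals 1 or 3, rat sham animals 2 or 3, mouse pMCAO animal 3 or mouse sham animal 1. That of Nr4a1 (0.0536 to 0.116) was lost without the same arrays and also without mouse pMCAO animal 2 or mouse sham animal 3, and that of Ocln (0.0523 to 0.0668) without rat pMCAO animal 3 or rat sham animals 1 or 2. The count of 323 was 142 without rat sham animal 2, 185 without rat sham animal 1 and 213 without mouse sham animal 1. Species, strain, hemisphere, filament and array differ together here and cannot be told apart.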

How the data were processed

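Total RNA of single animals (RIN above 7.5) was labelled with the Affymetrix WT PLUS kit and hybridised to whole-transcript arrays, per the labels. The authors deposited log2 expression values per transcript cluster, rounded to 2 decimals; the submitters' processing notes name oligo and limma without versions, and the background correction, normalization and genome build were not given in the sources used here. Of 36685 rat clusters 18511 carry 1 symbol in the platform annotation, 575 several and 17599 none; the brightest cluster per symbol left 18166 genes, with no filter on dim genes. Group means of the 12 rat arrays were fitted with limma 3.58.1 (R 4.3.3; 8 residual degrees of freedom) and p-values were two-sided with Benjamini-Hochberg adjustment. The 12 mouse arrays were fitted likewise; the species difference used Welch-Satterthwaite degrees of freedom over 14193 identical symbols. The code was tested on simulated data. Of 769 listed genes 678 were measured.

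Named genes were the 20 largest rises and falls, up to 5 called members per pathway list, the highest and lowest called member per marker list and the 5 largest differences each way by time and species; symbols starting with Olr, Mir, LOC and the like were left out of the ranking, and list members may be given by value. The members, lists and tests were chosen with earlier results of these data known. Array signal and 3 animals per group limit the precision. Deviations of same-numbered pMCAO and sham animals from their group means correlated at 0.032, 0.023 and 0.066. For differently numbered animals the correlations were -0.094 to 0.064. The numbers were not treated as pairs, though with 3 animals per group this check cannot exclude a pairing. Alternatives covered the arrays fitted, the moderation, array weights, normalization, dim genes, several clusters per gene, the block, a fold limit and leaving out each array.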

Additional observations from a re-analysis of the deposited data

Results flagged for a closer look

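Tests of a difference between times or species picked out the genes below among those named; no explanation was tested for any of them. Between 6 h and 2 h in rats (effect at 6 h minus effect at 2 h, limma, adjusted p 0.00982 to 0.0347 over 14 genes) the effect was larger at 6 h for Gadd45b (2.09), Ccl4 (1.99), Mt1 (1.98), Osmr (1.83), C3h11orf96 (1.59), Il6r (1.21), Ddit3 (0.95) and Jun (0.92). It was more negative at 6 h for Slco1a4 (-1.92), Tmem74 (-1.35), Tnfrsf11b (-1.29), Flrt2 (-1.07), Abcb1a (-1.01) and Slco1c1 (-0.93). Il6r went from -0.56 at 2 h to 0.65 at 6 h and Ddit3 from -0.13 to 0.82. Neither 2 h effect passed (adjusted p = 0.160 for Il6r and 0.853 for Ddit3). The call of the difference was lost for Ddit3 (adjusted p 0.0566 to 0.113) without pMCAO animals 1 or 3 of 2 h or any sham of either time, for Il6r (0.0534 to 0.0559) without pMCAO animal 3 of 2 h or sham animal 3 of 6 h, and for Flrt2 (0.0508 to 0.0724) without pMCAO animal 1 or sham animals 2 or 3 of either time.

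Between rats and mice at 6 h (rat effect minus mouse effect, adjusted p 8.55e-05 to 0.0471 over 38 genes) the rat effect was more positive for the immediate early genes Fos (2.29), Egr2 (2.29), Junb (1.84), Nr4a1 (1.79), Egr4 (1.59) and Sik1 (1.14). The same held for the immune and NF-kB genes Olr1 (2.48), Ccl4 (1.98), Socs3 (1.11), Nfkbia (0.86), Birc3 (0.80) and Rel (0.79) and the matrix and vascular genes Timp1 (1.75), Stc1 (1.38), Plat (1.32) and Adamts9 (1.05). Further genes of this direction were Mt1 (1.69), Nfil3 (1.19), Ppp1r15a (1.04), Ptges (1.03), Hbegf (1.02), Dnajb4 (0.83), Kcnf1 (0.74), Slc32a1 (0.42) and Gabrd (0.39). The rat effect was more negative for the vessel wall genes Abcg2 (-1.56), Slco1a4 (-1.07), Ocln (-0.87) and Abcb1a (-0.63) and for Bmp4 (-1.39), Gpr34 (-1.32), Neurod1 (-1.19), Tmem74 (-1.14), Ranbp3l (-0.97), Pibf1 (-0.68) and Gclm (-0.55). Ctla2a (-1.44) and Lyzl4 (-1.24) had a positive effect in mice (1.26 and 0.87), and in rats values of -0.18 and -0.36 that did not pass. Of the 14 differences by time 9, and of the 38 by species 17, lost their call in at least 1 fit that left out an array. Those by species with a more positive rat effect were Socs3, Nfkbia, Birc3, Rel, Egr2, Nr4a1, Sik1, Adamts9, Ptges, Kcnf1, Slc32a1 and Gabrd. Those with a more negative rat effect were Ocln, Abcb1a, Neurod1, Ranbp3l and Gclm. The adjusted p of these lost species calls was 0.0501 to 0.128.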

How the results depend on the processing

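No alternative turned the direction of a named gene in any of the 3 comparisons. The 1175 genes called at 6 h became 363 on the 6 arrays alone, 123 with a fold limit of log2 1, and 550 to 1268 when single arrays were left out. The other settings gave 863 (every cluster tested) to 1698 (trend and robust moderation). Median centring gave 598 higher and 553 lower, against 517 and 658. The 42 differences by time became 121 with trend and robust moderation, 82 with array weights and 11 to 140 without single arrays, and the 323 by species became 65 on the 6 h arrays alone, 531 with trend and robust moderation and 142 to 386 without single arrays. Of 130 named genes called at 6 h, 97 kept the call whichever of the 6 arrays was left out, and 91 kept it on the 6 arrays alone. With the replicate number as a block, though the numbers were not treated as pairs elsewhere, 1013 genes were called at 6 h, 4 by time and 336 by species. In that setting 118 of the 130 named genes, 4 of 10 by time and 10 of 10 by species kept their calls. A lone group estimate from 2 animals borrows the spread of the other groups. Low signal limits dim genes such as C1h9orf85. Mir421 had the widest spread among pMCAO animals of all called genes (SD 1.51).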
